A study of Mus musculus with 11 samples.

Results

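The 3 NR4A orphan nuclear receptors (Nr4a1, Nr4a2 and Nr4a3), the 4 early growth response factors (Egr1, Egr2, Egr3 and Egr4) and the EGR corepressors Nab1 and Nab2 were followed in RNA from mouse group 2 innate lymphoid cells (ILC2s). These 9 genes were picked by name, and each was found in the count table by the Entrez ID that belongs to its symbol, 9 of 27179 genes in all. Cells came from the large intestine of C57BL/6 mice of wild-type genotype, were sorted as ILC2s, and were kept for 3 h in medium to which IL-2 and IL-7 had been added at 100 ng/ml each, in every group. The 4 groups were vehicle (n = 3), ADM2 at 0.4 µg/ml (n = 3), IL-25 at 100 ng/ml (n = 3) and both agents at these doses (n = 2, replicates 2 and 3). In the treatment field of the last group the cytokine is spelled IL125, whereas its sample titles and the culture protocol name IL-25. ADM2 (adrenomedullin 2) is a peptide related to calcitonin gene-related peptide, and the series title concerns its action on ILC2s in intestinal inflammation. IL-25 is a cytokine of epithelial tuft cells to which ILC2s respond. The labels do not tell whether replicates are cells of different mice, so each p-value below measures the spread between these libraries, which may be technical. All cells had been sorted and cultured, so the vehicle group is a model of ILC2s in IL-2 and IL-7 and not of ILC2s in tissue. In bulk RNA, fewer cells expressing a gene and less RNA per cell cannot be told apart.

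NR4A proteins are nuclear receptors with no known obligate ligand, so that their activity follows how much of them a cell makes. Their genes are immediate early genes, which are transcribed within minutes of a stimulus from factors already present, with cAMP acting through CREB as a well-known inducer. EGR proteins are zinc finger factors that bind GC-rich DNA, and their genes are known targets of serum response factor (SRF) and its ternary complex partners downstream of ERK. NAB1 and NAB2 bind EGR1, EGR2 and EGR3 and repress their activity, and in T cells NR4A and EGR2 or EGR3 proteins are known for roles in tolerance and exhaustion.

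The NR4A genes, Egr2 and Nab2 are members that rose with ADM2 and again when ADM2 was added to IL-25. The Nab2 window held no match to a searched motif and is not shown. The sequences before the annotated starts of the NR4A genes and Egr2 are shown first. They are RefSeq promoter stretches of assembly GRCm38.p6, written 5′ to 3′ along the gene, and capitals mark each match to a searched motif that lies whole within the stretch. Nr4a1 is shown at chr15:101266596-101266845 (plus strand), Nr4a2 at chr2:57124004-57124253 (minus strand) and Egr2, at 1 of its 5 annotated starts, at chr10:67537619-67537868 (plus strand). Nr4a3 is shown only at chr4:48045055-48045107 (plus strand), where 3 of its matches lie.
Nr4a1: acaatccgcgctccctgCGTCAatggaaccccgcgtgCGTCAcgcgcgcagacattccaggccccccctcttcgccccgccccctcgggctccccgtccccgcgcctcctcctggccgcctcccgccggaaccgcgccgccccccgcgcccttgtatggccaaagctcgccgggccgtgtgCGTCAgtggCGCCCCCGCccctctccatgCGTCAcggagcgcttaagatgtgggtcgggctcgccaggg
Nr4a2: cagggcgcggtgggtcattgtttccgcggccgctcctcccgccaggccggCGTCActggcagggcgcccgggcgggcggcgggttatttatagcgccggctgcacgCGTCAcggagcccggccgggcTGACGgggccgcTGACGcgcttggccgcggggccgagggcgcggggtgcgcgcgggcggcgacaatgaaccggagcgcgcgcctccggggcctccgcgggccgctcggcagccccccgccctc
Nr4a3: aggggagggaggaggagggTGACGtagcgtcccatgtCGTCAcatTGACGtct
Egr2: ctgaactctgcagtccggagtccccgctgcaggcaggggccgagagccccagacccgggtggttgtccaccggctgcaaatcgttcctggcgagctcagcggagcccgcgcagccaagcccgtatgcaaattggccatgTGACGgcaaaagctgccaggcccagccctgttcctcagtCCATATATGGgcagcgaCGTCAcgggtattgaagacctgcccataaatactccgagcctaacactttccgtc

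The core of the cAMP response element (CRE) is TGACG or its reverse complement CGTCA. It occurred 4 times within the 250 bases before the annotated start of the window of each of the 3 NR4A genes. Among all 32851 RefSeq windows of 300 bases (250 before to 50 after a start, 27025 genes), 20.8% held at least 1 such core, 5.01% at least 2, 1.03% at least 3 and 0.231% (76 windows) at least 4. The 250 bases before the start were 74.4%, 80% and 63.6% G or C for Nr4a1, Nr4a2 and Nr4a3. The shares are over windows of any composition and were not matched for this. Of the 5 Egr2 windows 3 held 2 cores and the other two held 0, Egr4 had 2, Nab1 had 1 and Nab2 had 0. A CArG box, the element bound by SRF, occurred in 4 of the 5 Egr2 windows and in 1.63% of all windows. The 3 Egr2 windows with cores overlap for most of their length. They hold the same 2 cores and the same CArG box, so these are not separate occurrences. In the stretch printed above this box is the capital run between the 2 cores. The EGR motif GCGTGGGCG (0.612% of windows) matched 2 times in Nab1, and GCGGGGGCG (2.91%) matched 1 time each in Nab1 and Nr4a1. The full CRE TGACGTCA (1.79% of windows), which contains the core, the NR4A element AAAGGTCA (1.51%) and the AP-1 element TGANTCA (7.81%) matched no member window. An NF-kB motif (8.46% of windows) matched in Nr4a1, Egr2, Egr4 and Nab1, and Nab2 held no match to any of the 8 motifs. Both strands were searched. A window was given for 7 of the 9 members, Egr1 and Egr3 being the others. The Nr4a1 and Egr2 stretches lie inside longer annotated transcripts of the same gene, in introns by GENCODE M21. The Nr4a3 gene itself begins at 48045078, inside its window, and the window overlaps a GENCODE exon of the gene. The first core in that window ends on the first base of the gene, and the other cores lie inside the gene. Of the 53 bases printed for Nr4a3, 30 belong to the gene. A match is a string of letters in a window and not evidence of binding.

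**Figure D1:**
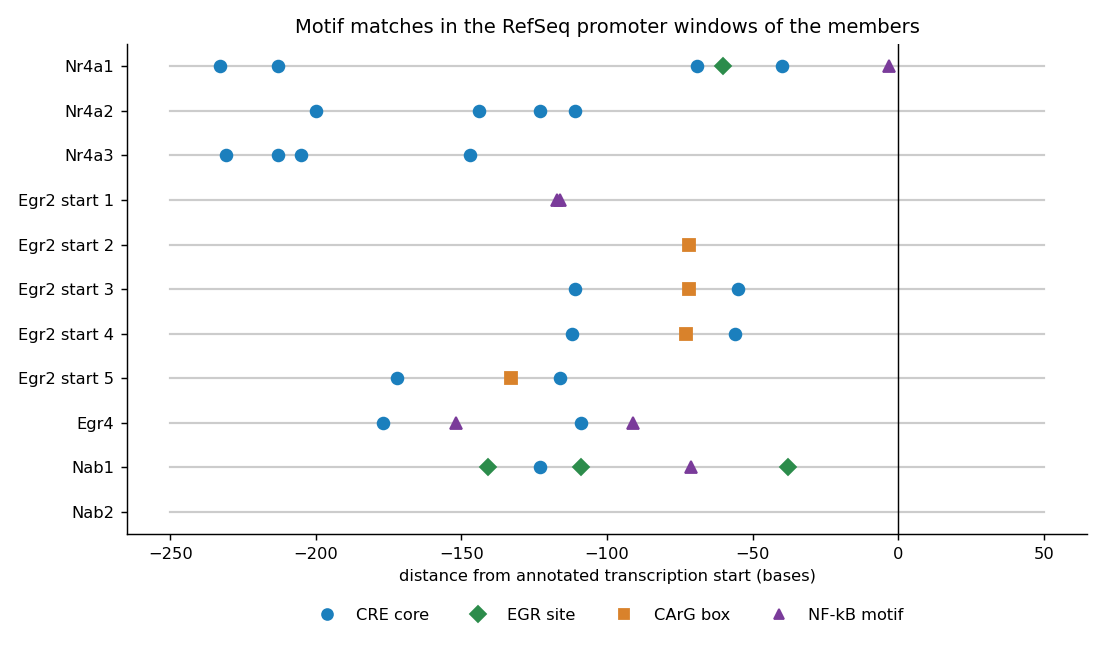
Each line is 1 RefSeq promoter window of a member (7 genes, Egr2 with 5 annotated starts), from 250 bases before to 50 bases after the start at 0, and each symbol is a motif match placed at its first base (x axis, distance in bases). The 3 NR4A windows hold 4 CRE cores each, the CArG box is seen only in Egr2 windows, and the Nab2 line is empty.

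Libraries held 25809256 to 35445351 counts, of which the 9 members took 0.141% to 0.370% of them. All 9 members passed the filter on low counts. Of 12 ILC2 markers none was at 0 in any library, and their summed level was 7360 to 7854 CPM (counts scaled to library size with TMM factors) in vehicle, 10503 to 10687 with ADM2, 17755 to 19039 with IL-25 and 27540.0 to 29870 with both. Among the 12, the cytokine gene Il5 had the widest range, 495 to 14859 CPM over the 11 libraries, so this sum is not a measure of ILC2 purity. Mast cell and neutrophil markers were near 0, with Tpsb2 and Ms4a2 at 0 in all 11 libraries. The 8 macrophage and dendritic cell markers summed to 10.7 to 14.4 CPM in vehicle, 23.7 to 26.8 with ADM2, 12.4 to 19.6 with IL-25 and 23.1 to 26 with both, and Csf1r stayed at or below 1.02 CPM. The 8 T cell markers summed to 88.8 to 102 CPM in vehicle, 147 to 169 with ADM2, 81.4 to 88.2 with IL-25 and 165 to 170 with both, nearly all of it Cd28, while Cd3e reached 3.45 CPM at most. The 5 epithelial markers, mostly Epcam, ran from 158 to 189 CPM in vehicle, 80.7 to 89.8 with ADM2, 143 to 168 with IL-25 and 66.1 to 86.2 with both. The 5 ILC3 markers, nearly all Il22, summed to 207 to 275 CPM in vehicle, 396 to 438 with ADM2, 1149 to 1329 with IL-25 and 1255 to 1491 with both. These 4 sums moved with ADM2, as did several members below, and their part in those results was not tested. The 5 B cell markers reached 21 CPM at most. The 5 stromal and endothelial markers, mostly Pecam1, summed to 207 to 210 CPM in vehicle, 158 to 211 with ADM2, 377 to 455 with IL-25 and 344 to 398 with both. The part of these and of the ILC3 markers in the IL-25 results was not tested either. IL-25 replicate 1 was the lowest library of its group for 8 of the 9 members and for 23 of 28 other immediate early genes, against 41% of all tested genes, and it had the fewest counts. Vehicle replicate 1 was the highest of its group for 5 members and for 21 of those 28 genes, against 32.9% of all tested genes. Without vehicle replicate 1, the calls of Egr2 with ADM2 (0.47, adjusted p = 0.172) and Nab1 with both agents (0.33, adjusted p = 0.132) against vehicle were lost, and the other member calls held. Values of IL-25 against vehicle are given below without IL-25 replicate 1 as well. For the 8 members lowest in that library, leaving it out tends by construction to raise the IL-25 value. Such values are therefore no separate support for an increase. When each library was left out in turn, the log2 IL-25 effect ranged from −0.12 to 0.32 for Nr4a2, 0.05 to 0.49 for Nr4a3 and 0.20 to 0.36 for Nab1. Where 1 of the 2 combined libraries is left out, the lone library is assumed to vary like the other groups.

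With ADM2 alone, 5 members rose and 0 fell: Nr4a1, Nr4a2, Nr4a3, Egr2 and Nab2. Over all 15028 tested genes 7.39% rose and 7.43% fell (edgeR, quasi-likelihood test, called where the adjusted p was below 0.05). With IL-25 alone, Nr4a1 and Egr2 rose and Nab2 fell, where 13.0% of all genes rose and 10.4% fell. With both agents against vehicle 6 members rose and 0 fell, the 5 of ADM2 and Nab1, against 10.6% and 9.64% of all genes. ADM2 added to IL-25 raised 5 members, Nr4a1, Nr4a2, Nr4a3, Egr2 and Nab2, and lowered Egr4, against 6.53% and 8.10% of all genes. IL-25 added to ADM2 raised Nr4a1 and Egr2 and lowered 0 members, against 6.17% and 4.68%. In the direct comparison of IL-25 with ADM2, Nr4a1 and Egr1 were higher with IL-25, and Nr4a2, Nr4a3 and Nab2 were lower, against 16.1% and 15.1% of all genes. These comparisons share libraries, so their counts are not independent of each other. Under upper-quartile scaling the share of increases among all called genes was 44.6% in place of 55.6% for IL-25 against vehicle, and 57.4% in place of 44.6% for both agents against IL-25. No call of a member was lost under that scaling.

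**Figure D2:**
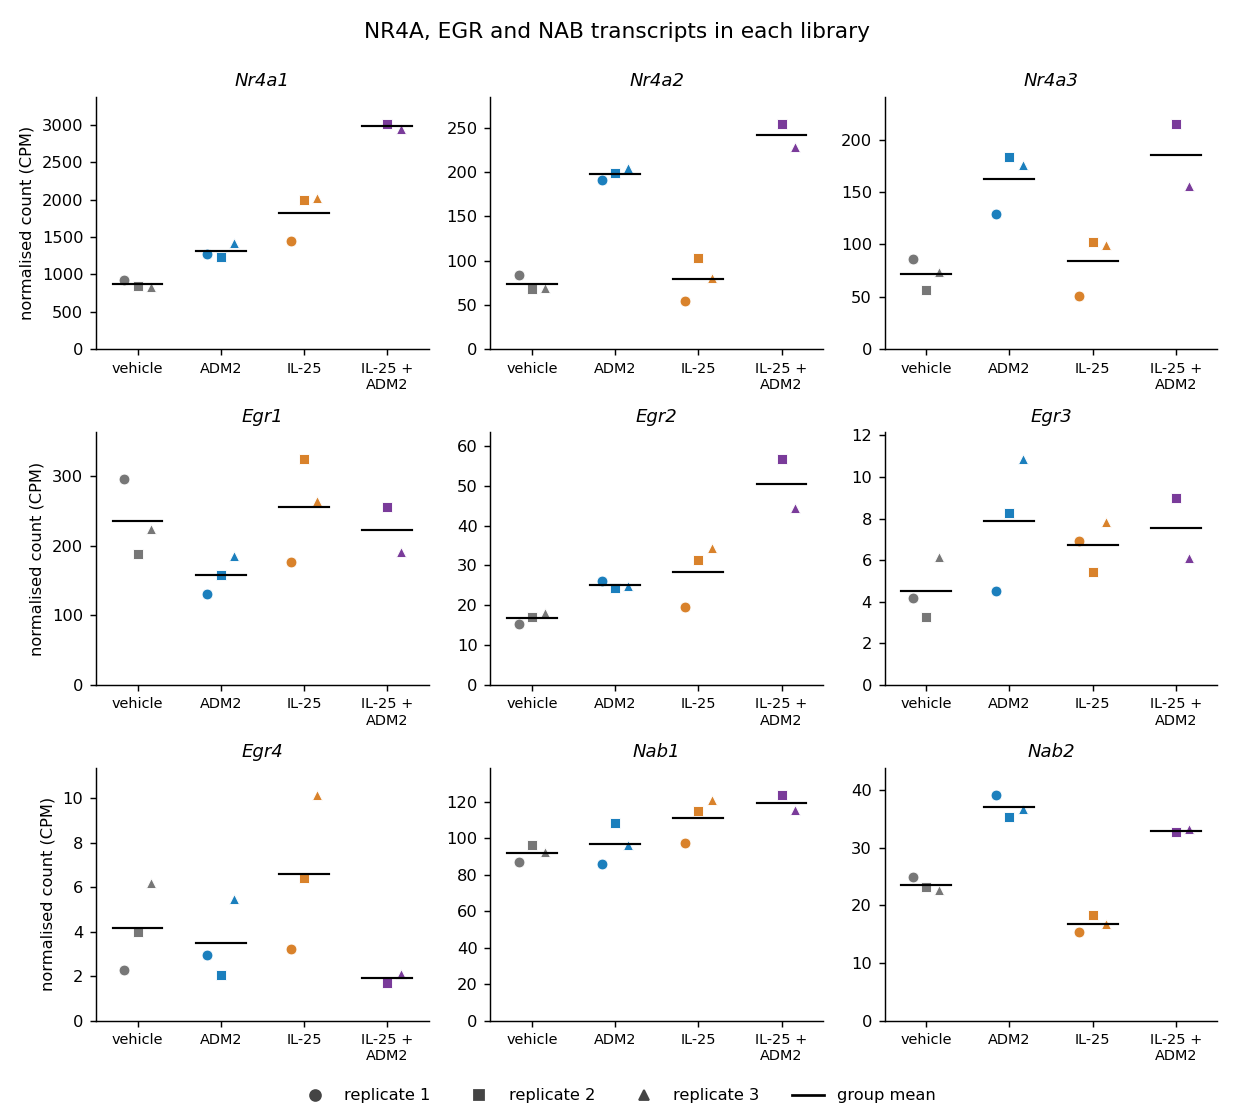
Normalised counts (CPM, y axis, linear from 0 and scaled to each gene) of the 9 members in each of the 11 libraries by group (x axis), with symbols for the replicate number and a bar at the group mean. Nr4a1 steps up from vehicle to ADM2, IL-25 and both, Nr4a2 and Nr4a3 are high in the groups with ADM2, and Nab2 is high with ADM2 and low with IL-25 alone.

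Nr4a1, also called Nur77 (Entrez ID 15370, chromosome 15, 101253902 to 101274795, GRCm38), rose with each agent and stood highest with both. Its normalised counts were 926, 845 and 826 CPM in vehicle replicates 1 to 3 and 1268, 1237 and 1412 CPM with ADM2. They were 1440.2, 1990.0 and 2014 CPM with IL-25, and 3017 and 2948 CPM with both. Every ADM2 library lay above every vehicle library, every IL-25 library above every ADM2 library, and both combined libraries above all others. The order vehicle (866 ± 52.7 CPM), ADM2 (1306 ± 93.0), IL-25 (1815 ± 325) and both (2982 ± 49.1, SD) held at each step, with edgeR adjusted p = 0.00162, 0.00363 and 8.84e-04. Against vehicle the increase was 1.51-fold with ADM2 (log2 fold change 0.59 ± 0.11, SE), 2.10-fold with IL-25 (1.07 ± 0.11, adjusted p = 7.59e-06) and 3.44-fold with both (1.78 ± 0.12, adjusted p = 1.03e-07). IL-25 added to ADM2 raised Nr4a1 2.28-fold (adjusted p = 1.70e-05), and ADM2 added to IL-25 raised it 1.64-fold. Without IL-25 replicate 1 its log2 increase with IL-25 was 1.21 (adjusted p = 2.52e-07). All 6 calls of Nr4a1 held in each of 20 alternative analyses.

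Nr4a2, also called Nurr1 (Entrez ID 18227, chromosome 2, 57106830 to 57124003), rose in the groups that held ADM2. It stood at 83.3, 67.9 and 69.1 CPM in vehicle, 191, 199 and 205 CPM with ADM2, 54.3, 103 and 80.2 CPM with IL-25, and 255 and 228 CPM with both. The IL-25 libraries overlapped vehicle, and every library with ADM2 lay above every library without it. ADM2 raised Nr4a2 2.70-fold without IL-25 (1.43 ± 0.17, edgeR adjusted p = 3.20e-05) and 3.05-fold with it (1.61 ± 0.18, adjusted p = 3.42e-05). The IL-25 effect was 0.11 (95% interval −0.25 to 0.47, adjusted p = 0.716) without ADM2, 0.32 (adjusted p = 0.0850) when IL-25 replicate 1 was left out, and 0.29 (−0.11 to 0.68, adjusted p = 0.410) with ADM2. Nr4a2 was 2.50-fold lower with IL-25 than with ADM2 (adjusted p = 2.19e-05). A predicted gene that was not analysed here, LOC105244150, overlaps Nr4a2 in the annotation. Whether counting used strand is not given in the sources, so that reads of this pair cannot be told apart.

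Nr4a3, also called NOR1 (Entrez ID 18124, chromosome 4, 48045078 to 48086447), followed Nr4a2 with a wider spread. Its values were 85.7, 56.0 and 73.5 CPM in vehicle, 129, 183 and 176 CPM with ADM2, 51.1, 102 and 99.8 CPM with IL-25, and 216 and 156 CPM with both. The libraries with ADM2 again all lay above those without it. ADM2 raised Nr4a3 2.27-fold without IL-25 (1.18 ± 0.23, edgeR adjusted p = 0.00246) and 2.2-fold with it (1.14 ± 0.25, adjusted p = 0.00636). The latter value was 0.88 (adjusted p = 0.0889) without replicate 2 of the combined group, a fit with 1 combined library. With IL-25 alone the log2 difference from vehicle was 0.23 (−0.26 to 0.73, adjusted p = 0.537), and 0.49 (adjusted p = 0.0802) when IL-25 replicate 1 was left out. Against ADM2, Nr4a3 was 1.93-fold lower with IL-25 (adjusted p = 0.00521). With both agents it was 2.59-fold above vehicle (adjusted p = 0.00123).

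Egr2, also called Krox20 (Entrez ID 13654, chromosome 10, 67534469 to 67542188), was the EGR factor that rose with each agent. It stood at 15.3, 17.1 and 18.0 CPM in vehicle, 26, 24.4 and 24.8 CPM with ADM2, 19.4, 31.2 and 34.3 CPM with IL-25, and 56.6 and 44.3 CPM with both. Vehicle lay below every other group and the combined group above every other, while ADM2 and IL-25 overlapped. With both agents Egr2 was 3.00-fold above vehicle (1.58 ± 0.19, edgeR adjusted p = 3.38e-05), a call that held in all 20 alternatives. IL-25 alone raised it 1.69-fold (0.75 ± 0.18, adjusted p = 0.00597), or by 0.96 on the log2 scale without IL-25 replicate 1 (adjusted p = 0.000199). ADM2 alone raised it 1.49-fold (0.57 ± 0.18, adjusted p = 0.0405), and the adjusted p lay between 0.0807 and 0.172 when any of the 6 libraries compared was left out. ADM2 added to IL-25 raised Egr2 1.78-fold (adjusted p = 0.00849), and IL-25 added to ADM2 raised it 2.01-fold (adjusted p = 0.00301). Without replicate 2 of the combined group the log2 values were 0.64 (adjusted p = 0.124) and 0.82 (adjusted p = 0.0529). Between IL-25 and ADM2 the difference was 0.18 (adjusted p = 0.503), and 0.39 (adjusted p = 0.0434) without IL-25 replicate 1. The predicted gene Gm32255, also not analysed here, overlaps Egr2, with the same limit on strand.

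Egr1, also called Zif268 (Entrez ID 13653), was the most abundant EGR transcript and did not follow Egr2. It was read at 295, 188 and 224 CPM in vehicle, 131, 158 and 184 CPM with ADM2, 176, 324 and 265 CPM with IL-25, and 256 and 190.2 CPM with both. All 3 ADM2 libraries lay below all 3 vehicle libraries, by a narrow margin, and the IL-25 and combined groups overlapped vehicle. Against vehicle the log2 difference with ADM2 was −0.58 ± 0.21 (edgeR adjusted p = 0.0791), short of the threshold. It passed without the filter on low counts (adjusted p = 0.00618), with only the groups compared (0.0288), with sample quality weights (0.0202), without vehicle replicate 2 (0.0302) and without IL-25 replicate 1 (0.0317). Without vehicle replicate 1, the highest library, the difference was −0.42. Egr1 was 1.62-fold higher with IL-25 than with ADM2 (adjusted p = 0.0185), although these groups overlapped and the call was lost when ADM2 replicate 1 (0.0869) or replicate 2 (0.0998) or 3 (0.0542) of IL-25 was left out. With both agents it differed from vehicle by −0.08 (−0.57 to 0.41).

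Egr3 and Egr4 (Entrez IDs 13655 and 13656, chromosome 14, 70077317 to 70082613, and chromosome 6, 85511121 to 85513589) were rare transcripts. Egr3, a factor close to Egr2 in function in T cells, had 121 to 394 reads per library. Its levels were 4.19, 3.27 and 6.15 CPM in vehicle, 4.53, 8.25 and 10.8 CPM with ADM2, 6.94, 5.41 and 7.81 CPM with IL-25, and 9.0 and 6.13 CPM with both. The groups overlapped in each comparison, and no difference of Egr3 passed the threshold. The ADM2 difference from vehicle was 0.80 (0.10 to 1.49, edgeR adjusted p = 0.128), and 1.07 (adjusted p = 0.0369) without ADM2 replicate 1. Egr4 had 49 to 328 reads per library. It was at 2.27, 4.0 and 6.18 CPM in vehicle, 2.94, 2.03 and 5.45 CPM with ADM2, 3.20, 6.43 and 10.1 CPM with IL-25, and 1.69 and 2.10 CPM with both. Only against IL-25 alone did the combined group pass the threshold, 3.48-fold lower (−1.80 ± 0.56, adjusted p = 0.0415). That call was lost in 8 of 20 alternatives, among them limma voom (adjusted p = 0.0995) and the fits without IL-25 replicate 2 (0.0656) or 3 (0.147), or without replicate 2 (0.211) or 3 (0.146) of the combined group.

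Nab2 (Entrez ID 17937, chromosome 10, 127660918 to 127666703), a corepressor that EGR proteins are known to induce, rose with ADM2 and fell with IL-25. Its counts came to 24.9, 23.1 and 22.6 CPM in vehicle, 39.1, 35.3 and 36.7 CPM with ADM2, 15.4, 18.3 and 16.7 CPM with IL-25, and 32.7 and 33.2 CPM with both. No 2 of the 4 groups overlapped. ADM2 raised Nab2 1.57-fold without IL-25 (0.65 ± 0.11, edgeR adjusted p = 8.59e-04) and 1.96-fold with it (0.97 ± 0.13, adjusted p = 9.61e-05). IL-25 lowered it 1.4-fold (−0.49 ± 0.11, adjusted p = 0.00594), and the fall was −0.43 (adjusted p = 0.0208) without IL-25 replicate 1. Between IL-25 and ADM2 the difference was −1.14 on the log2 scale (adjusted p = 1.87e-06). With both agents Nab2 was 1.4-fold above vehicle (0.49 ± 0.12, adjusted p = 0.0122). With 1 combined library left the value was 0.50 (adjusted p = 0.0633) or 0.47 (adjusted p = 0.0916), close to the same size and short of the threshold. Its 3′ neighbour Stat6 shares 40 of Nab2's 2941 exonic bases (1.36%). Stat6 had 295 ± 9.21 CPM in vehicle, 287 ± 8.78 with ADM2, 388 ± 19.4 with IL-25 and 348 ± 2.03 with both (SD), higher with IL-25 (0.39 ± 0.08, adjusted p = 0.00202), where Nab2 was lower.

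Nab1 (Entrez ID 17936, chromosome 1, 52455849 to 52500712), the other corepressor, varied little. It measured 86.9, 96.2 and 92.6 CPM in vehicle, 85.7, 109 and 96.5 CPM with ADM2, 97.2, 115 and 121 CPM with IL-25, and 124 and 116 CPM with both. The IL-25 and combined libraries lay above vehicle, IL-25 by a narrow margin, and ADM2 overlapped vehicle. Only the combined group against vehicle passed the threshold, 1.3-fold higher (0.38 ± 0.12, edgeR adjusted p = 0.0398), and this was lost in 6 of 20 alternatives. The ADM2 effect was 0.08 (−0.16 to 0.31, adjusted p = 0.749). The IL-25 effect was 0.27 (0.04 to 0.51, adjusted p = 0.0931), and 0.36 (adjusted p = 0.0293) without IL-25 replicate 1.

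**Figure D3:**
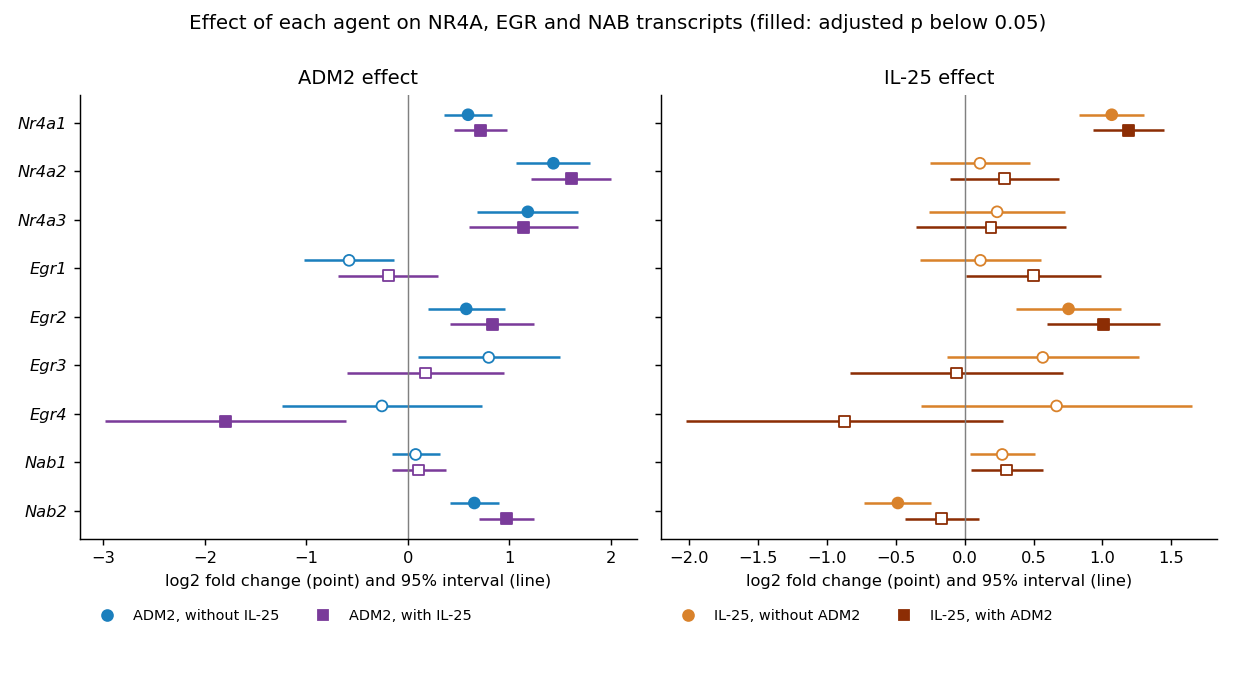
Log2 fold changes (x axis, point) with 95% intervals (line) for the 9 members, with the ADM2 effect without and with IL-25 on the left and the IL-25 effect without and with ADM2 on the right, filled where the edgeR adjusted p was below 0.05. Nr4a2, Nr4a3 and Nab2 lie to the right of 0 for ADM2 in both settings, and Nr4a1 and Egr2 lie to the right of 0 in all 4.

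Whether the ADM2 effect differed with and without IL-25 was tested as an interaction, which asks if the combined effect equals the sum of both log2 effects. Of the 9 members 0 passed, 1 had an unadjusted p below 0.05, and the smallest adjusted p was 0.721. Of all genes 0.0133% were called higher and 0.0200% lower (5 genes by edgeR, 1028 at an unadjusted p below 0.05, and 47 called by DESeq2). For Nr4a1 the sum of the single effects was 1.66 and the combined effect 1.78, a difference of 0.12 (95% interval −0.23 to 0.48). For Nr4a2 the sum was 1.54 against 1.72 observed, and for Egr2 it was 1.33 against 1.58. The interval of the difference lay within 1 log2 unit of 0 for 6 members, Egr1, Egr3 and Egr4 being the others. For Nab2, whose single effects have opposite signs, the difference was 0.32 (−0.04 to 0.68). Egr4 had the lowest unadjusted p, with a difference of −1.54 (−3.06 to −0.03, unadjusted p = 0.0465).

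**Figure D4:**
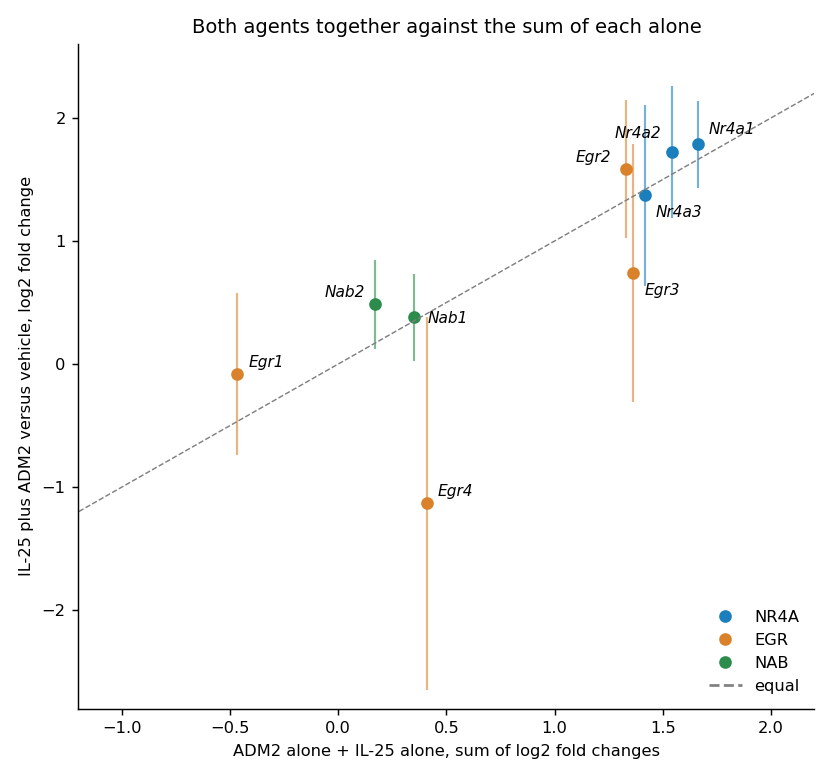
For each of the 9 members the x axis gives the sum of the log2 fold changes with ADM2 alone and IL-25 alone, and the y axis the log2 fold change with both agents, with a vertical line for the 95% interval of the difference between them. The NR4A genes, Egr2 and both NAB genes lie near the dashed line of equality, and the Egr4 interval lies just below it.

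Levels of different genes were compared per exonic length, as reads per kilobase of exon scaled to library size (RPKM). Summed RPKM of the NR4A genes was 277 ± 18.9 in vehicle, 448 ± 29.5 with ADM2, 551 ± 103 with IL-25 and 941 ± 25.7 with both (SD). Nr4a1 made up most of it in every library, with a mean share of 89.2% in vehicle, 83.0% with ADM2, 94.0% with IL-25 and 90.4% with both. The share of Nr4a2 was 6.52% in vehicle, 10.9% with ADM2, 3.5% with IL-25 and 6.33% with both. The sum was highest with both agents, where the Nr4a1 share of 89.7% to 91.1% overlapped the 88.3% to 90.2% of vehicle. The RPKM ratio of Nr4a1 to Egr1 was 4.01 to 5.74 in vehicle, 9.78 to 12.4 with ADM2, 7.85 to 10.4 with IL-25 and 15.1 to 19.8 with both. Summed EGR RPKM stayed between 39.2 and 85.7 in the 11 libraries, with group means of 60.5 in vehicle, 46.0 with ADM2, 69.8 with IL-25 and 67.2 with both. Egr2 supplied 6.22% to 10.1% of the EGR sum in vehicle and 21.8% to 22.5% with both, and Egr1 supplied 83.9% to 91.0% and 73.4% to 74.5%. The RPKM ratio of Nab2 to Nab1 ran from 0.335 to 0.399 in vehicle, 0.453 to 0.636 with ADM2, 0.192 to 0.222 with IL-25 and 0.368 to 0.401 with both. That ratio in the ADM2 group lay above, and in the IL-25 group below, every library of the other groups.

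**Figure D5:**
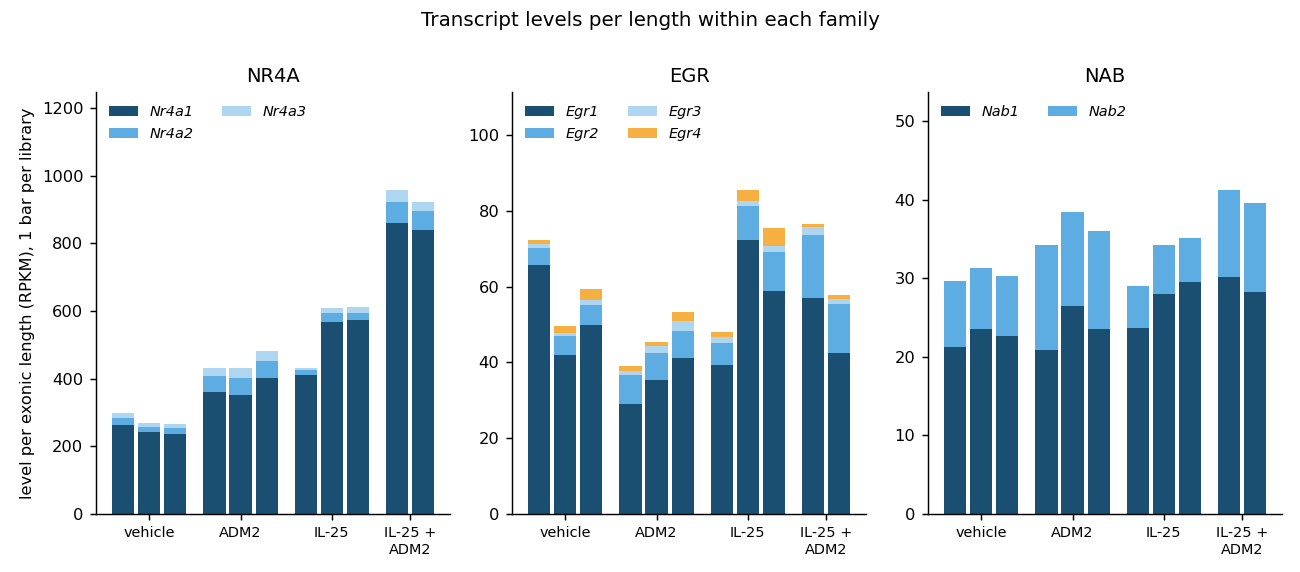
Stacked levels per exonic length (RPKM, y axis from 0, scaled to each family) of the NR4A, EGR and NAB genes, with 1 bar per library grouped by treatment (x axis). Nr4a1 fills most of each NR4A bar, Egr1 most of each EGR bar, and the Nab2 part of the NAB bars is widest with ADM2 and narrowest with IL-25 alone.

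Other immediate early genes were read from a list of 28, all tested. With ADM2 16 rose and 1 fell, with a median log2 change of 0.71 against −0.01 over all tested genes, and with IL-25 14 rose and 1 fell, with a median of 0.27 against 0.00. With both agents 23 rose against vehicle and 0 fell. Of all genes 7.39% rose and 7.43% fell with ADM2, 13.0% and 10.4% with IL-25, and 10.6% and 9.64% with both. Sik1, a kinase that restrains CRTC coactivators, rose with ADM2 from 123 ± 19.9 to 376 ± 25.2 CPM (SD; 1.61 ± 0.15, edgeR adjusted p = 2.32e-06) and was at 137 ± 25.3 CPM with IL-25. Dusp5, an ERK phosphatase, rose from 121 ± 7.21 to 305 ± 17.7 CPM with ADM2, with 105 ± 14.4 CPM under IL-25. These genes and Nr4a2 shared the pattern of an increase with ADM2 and no call with IL-25. Gadd45b, a stress response gene, and Junb, an AP-1 subunit gene, rose with each agent as Nr4a1 did. Gadd45b went from 644 ± 43.2 to 1727 ± 84.4 CPM with ADM2 and 1275 ± 138 with IL-25, and Junb from 1348 ± 32.7 to 2427 ± 132 and 2307 ± 131 CPM. Myc, a growth regulator, fell with ADM2 from 261 ± 4.80 to 189.5 ± 2.17 CPM and rose with IL-25 to 707 ± 77.2 CPM, and Dusp2, another MAP kinase phosphatase gene, rose with IL-25 (1.17 ± 0.14). Fos, a SRF target like Egr1 and named after its value was seen, rose with ADM2 (0.96 ± 0.09, adjusted p = 2.51e-06), where Egr1 did not.

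Among 16 genes of the factors that drive immediate early genes (SRF, its partners, MEF2, CREB and CRTC), 2 rose and 1 fell with ADM2, and 4 rose and 3 fell with IL-25. The median changes were −0.10 and 0.23, against −0.01 and 0.00 over all genes. For this and the lists that follow, the shares of all genes that rose and fell were 7.39% and 7.43% with ADM2, and 13.0% and 10.4% with IL-25. Crem, which encodes cAMP-induced activators and the repressor ICER, rose with ADM2 from 292 ± 29.5 to 995 ± 69.7 CPM (1.77 ± 0.11, edgeR adjusted p = 1.01e-07). Srf rose with each agent (0.39 ± 0.11 with ADM2 and 0.44 ± 0.11 with IL-25), and Crtc1, a CREB coactivator gene, fell with ADM2 (−0.75 ± 0.19). With IL-25, Creb1 (0.76 ± 0.10) and Crtc2 (0.60 ± 0.09) rose, and Elk3, a ternary complex factor gene, fell (−0.80 ± 0.13). Of the 3 RXR genes, whose products pair with NR4A1 and NR4A2, 0 rose and 1 fell with ADM2, and 0 rose and 2 fell with IL-25. Rxrb fell with ADM2 from 90.3 ± 3.03 to 62.4 ± 0.43 CPM (adjusted p = 0.00104). Rxra fell with IL-25 from 35.9 ± 3.79 to 19.7 ± 1.74 CPM (adjusted p = 3.36e-04), and Rxrg, much rarer, from 6.56 ± 1.2 to 1.88 ± 0.15 CPM (adjusted p = 1.72e-04). Of 13 genes of the NuRD complex, a histone deacetylase complex that NAB proteins recruit, 2 rose and 1 fell with each agent. The increases with ADM2 were only 2 genes, and the other counts were near the shares over all genes. The genes called were Hdac1 (0.37 ± 0.09), Rbbp4 (0.37 ± 0.12) and Mbd3 (−0.79 ± 0.10) with ADM2. With IL-25 they were Hdac2 (0.77 ± 0.11), Rbbp7 (0.30 ± 0.10) and Mta3 (−0.48 ± 0.13).

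Genes known in T cells as EGR2 or EGR3 targets numbered 18, of which 17 were tested and Nrn1 was not. With ADM2 4 rose and 0 fell (median 0.36), and with IL-25 2 rose and 3 fell (median −0.02), the 2 increases with IL-25 being near the 13.0% of all genes. Tnfrsf9, the gene of the costimulatory receptor 4-1BB, rose with ADM2 from 1030 ± 151 to 2356 ± 394 CPM (edgeR adjusted p = 1.41e-04) and stood at 1159 ± 295 CPM with IL-25. Cdkn1a (0.43 ± 0.08), a cell cycle inhibitor gene, Ndrg1 (0.46 ± 0.11) and Socs1 (0.36 ± 0.10), a brake on cytokine signalling, also rose with ADM2. IL-25 lowered Dgka (−0.98 ± 0.10), a kinase that consumes diacylglycerol, and Socs1 (−0.40 ± 0.10), and raised Cdkn1a (0.42 ± 0.08) and Socs3 (0.55 ± 0.14). Of 15 genes known to depend on NR4A factors in T cells, 4 rose and 2 fell with ADM2 (median 0.29), 5 rose and 2 fell with IL-25 (median 0.10), and 9 rose and 0 fell with both, where 10.6% and 9.64% of all genes did. Pdcd1, which encodes the inhibitory receptor PD-1, rose with ADM2 from 117 ± 10.9 to 379.7 ± 6.13 CPM (adjusted p = 2.76e-08) and was at 104 ± 5.88 CPM with IL-25. Nt5e, the gene of the ecto-enzyme CD73, rose with ADM2 from 75.6 ± 10.5 to 131 ± 11.7 CPM and fell with IL-25 to 24.7 ± 6.66 CPM. Tnfrsf18, the gene of GITR, rose with ADM2 (1.23 ± 0.12). Il2ra, the IL-2 receptor alpha chain gene, fell with ADM2 (−0.89 ± 0.14) and rose with IL-25 (1.31 ± 0.14), and the transcription factor genes Irf4 (1.41 ± 0.08) and Batf (1.60 ± 0.14) rose with IL-25. The NR4A and EGR lists come from T cells and give no direction of regulation, so their rises and falls are counts only. No binding was measured here.

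Genes whose log2 CPM followed a member most closely over the 11 libraries were found by Pearson correlation among 9461 genes. The libraries share groups, so these values describe the 4 group levels as much as single libraries. Genes picked in this way share a member's changes by selection, so their changes are no separate result. Closest to Nr4a1 were Cxcl2, a neutrophil chemokine gene (r = 0.99), Arih2 (0.99), a ubiquitin ligase gene, and Nfkbia (0.98), which encodes an NF-kB inhibitor. Cxcl2 ran from 60.5 ± 0.13 CPM in vehicle through 174 ± 24.0 with ADM2 and 304 ± 66.4 with IL-25 to 1027 ± 34.7 with both (SD). Closest to Nr4a2 were Fosb, an AP-1 subunit gene, and Ccr8, a chemokine receptor gene, as well as Dkk3 (r = 0.99 for Ccr8 and Dkk3). Fosb was at 324 ± 47.4, 925 ± 69.0, 344 ± 84.7 and 1111 ± 196 CPM in vehicle, ADM2, IL-25 and both, the order of Nr4a2. Closest to Nr4a3 were Ston2 (0.99), Aff1 (0.98) and Runx3 (0.98), a transcription factor gene of lymphocytes. Egr2 was followed by Socs3 (0.97), Cish (0.96), both genes of cytokine signalling inhibitors, and Arih2 (0.96). Nab2 was followed by Arhgef10l (0.99), Hip1r (0.98) and Armcx2 (0.98), and Hip1r, like Nab2, rose with ADM2 (0.89 ± 0.10) and fell with IL-25 (−0.79 ± 0.10). The rare Egr4 had no gene above 0.81 (Meaf6, then Slc25a15 and Lamp1). Among the members, Nr4a2 and Nr4a3 correlated at 0.95, Nr4a1 and Egr2 at 0.95, and Nr4a2 and Nab2 at 0.86, whereas Nr4a1 and Nr4a2 reached 0.55.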

How the data were processed

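Bulk RNA-seq of cultured mouse ILC2s was deposited as 1 table of raw counts of reads, with 1 line per Entrez gene ID, with 11 libraries used here. Per the submitters' processing notes the authors used featureCounts, limma and the mm10 build. The aligner, the annotation release and whether strand was used were not given in the sources used here. Genes that overlap are therefore uncertain. Replicate 1 of the IL-25 plus ADM2 group was not analysed here. Symbols came from a RefSeq table of GRCm38.p6, which matched 25275 of 27179 IDs and left 1904 unmatched.

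Counts were tested with edgeR 4.0.16 (R 4.3.3): TMM factors (0.904 to 1.12), filterByExpr with a minimum count of 10 (15028 genes kept), 1 mean per group over 11 libraries, a quasi-likelihood F test and Benjamini-Hochberg adjustment over all tested genes, called below 0.05. The median biological coefficient of variation was 0.176. Each SE was taken as |log2 fold change| over the root of F, which is approximate. CPM used TMM-scaled library sizes, and RPKM used GENCODE M21 exonic lengths. The code of the test was tried on simulated counts with the same spread for every gene. That trial does not cover genes of wider spread, such as rare transcripts. Replicates of a group were no copies of each other (chi-square per degree of freedom at least 15.8).

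The members, lists and tests were chosen with earlier results of these data known. All 9 members are named. Of each list at most 4 genes are named for ADM2 and at most 4 for IL-25 against vehicle, those called with the smallest p, and Fos outside this rule. The 3 genes most like a member were sought for members spanning at least 1 log2 unit between group means, among genes averaging at least 2 log2 CPM. Alternatives were DESeq2 1.42.0, limma 3.58.1 voom without and with sample quality weights, 2 other scalings, 2 other filters on low counts, only the groups compared, a replicate block, and leaving out each library.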

Additional observations from a re-analysis of the deposited data

How the results depend on the processing

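The members gave 27 calls over the 6 pairwise comparisons, of which 19 held in each of 20 alternatives and 8 were lost in at least 1. Of 36 member results that were not called, the 9 interactions included, 5 passed in some alternative. No called value changed sign. The limits are the 2 libraries of the combined group, few reads for Egr3 and Egr4, and replicates of unknown origin.

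Of 15 pairs of libraries with the same replicate number, 0 had deviations from their group means correlated above 0.1. The deviations of the 2 combined libraries mirror each other, so their pairs add little. The labels do not tell whether a number marks a shared mouse or sort, so pairing cannot be decided from this. With a replicate block Nab1 lost its call for both agents against vehicle (adjusted p = 0.0944) and Egr4 passed there (0.0425), other member calls were kept, and the interaction called 2 genes in place of 5. That count was 47 with DESeq2, 47 with no filter on low counts, 3 with a minimum count of 30, 1 with limma voom, 2 with sample quality weights, and 0 to 6 when a library was left out. For the interaction no fit with only the groups compared was made, since all 4 groups enter it.

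When each library was left out in turn, members called numbered 3 to 6 for both agents against IL-25 and 1 to 2 for both against ADM2, the low values without replicate 2 of the combined group, which leaves 1 library there. All genes called numbered 1263 to 2261 (2198 with all libraries), 739 to 1926 (1630) and, for both against vehicle, 1644 to 3437 (3042). The lowest of these 3 counts came without replicate 3 of the combined group, and without replicate 2 they were 1320, 987 and 2166. The cause was not tested.

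Values that changed sign were small and not called, in 14 results. For Nab1 the interaction was −0.011 with sample quality weights and −0.032 with the replicate block, and for Nr4a3 it was 0.021 with upper-quartile scaling. Over the fits without 1 library the log2 interaction was −0.30 to 0.17 for Nr4a3, −0.055 to 0.14 for Nab1, −0.018 to 0.25 for Nr4a1 and −0.032 to 0.41 for Nr4a2. Against vehicle, Egr1 ranged from −0.095 to 0.32 with IL-25 and −0.31 to 0.12 with both, Nr4a2 from −0.12 to 0.32 with IL-25, Egr4 from −0.78 to 0.11 and Nab1 from −0.013 to 0.16 with ADM2. With both agents against IL-25, Egr1 ranged from −0.42 to 0.015 and Egr3 from −0.13 to 0.42. With both against ADM2, Nr4a3 ranged from −0.064 to 0.41 and Egr3 from −0.36 to 0.27, and for IL-25 against ADM2 Egr3 ranged from −0.51 to 0.073.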
